A study of Rattus norvegicus with 4 samples.

Results

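Kitlg, Nppc, Npr2 and Gja1 carry signals that pass from granulosa cells, the somatic cells of the ovarian follicle, towards the oocyte. They were chosen by name and read on rat expression arrays, where 9 of 31042 rat probe sets are annotated to exactly 1 of these 4 genes, out of 14217 named genes. Kitlg had 4 probe sets, Gja1 had 3, and Nppc and Npr2 had 1 each. The cells were primary granulosa cells of female Sprague-Dawley rats aged 23 to 25 days that had received estradiol, cultured without serum in wells coated with 1% serum. Every culture received an adenovirus for 4 h, followed by 24 h with or without follicle-stimulating hormone (FSH), the pituitary hormone that drives follicle growth. The groups were FOXOA3 FSH (FOXO1, a forkhead transcription factor, in a constitutively active form, with FSH at 100 ng/ml), FOXOA3-mDBD FSH (its DNA-binding mutant, with the same FSH dose), GFP FSH (a control virus for green fluorescent protein, with FSH) and GFP vehicle (the control virus without FSH). Each group had 1 array. There was thus no estimate of the spread within a group, no difference below could be tested against replicate error, and each difference compares single arrays. Whether the RNA of an array came from 1 animal or a pool, and how many cells each virus reached, is not stated by the labels.

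KIT ligand, the product of Kitlg, is made by granulosa cells and acts on the receptor KIT of oocytes and theca cells, where it supports oocyte growth. Nppc encodes the precursor of C-type natriuretic peptide. In mouse follicles this peptide binds the receptor NPR2, a guanylyl cyclase, on granulosa and cumulus cells, and the cGMP made there passes through gap junctions into the oocyte, where it restrains the phosphodiesterase PDE3A and so holds meiosis arrested. Gja1 encodes connexin 43, the main gap junction protein between granulosa cells.

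The promoters of the members are shown because Nppc and Kitlg, which differed in opposite directions between FOXOA3-mDBD FSH and GFP FSH, have windows alike in composition, while that of Gja1 differs from both. The sequences are those of RefSeq on build GRCr8, from 250 bases before to 50 bases after a transcript start, read 5′ to 3′ on the strand of the gene, and 3 of the 4 members matched the table. Nppc lies on the minus strand at chr9:94772137-94772436, Kitlg on the plus strand at chr7:36782410-36782709, and Gja1 on the plus strand at chr20:36302314-36302613. Capitals mark every match, on either strand, to 7 words. They are GTAAACA, bound by FOXO factors, the cAMP response element TGACGTCA and its 5-base part TGACG, the SF-1 family word AAGGTCA, then TGANTCA, known as a target of AP-1, the Sp1 word GGGCGG and, as the core of a TATA box, TATAAA. A match to the long cAMP word also counts as one to its part.
Nppc promoter: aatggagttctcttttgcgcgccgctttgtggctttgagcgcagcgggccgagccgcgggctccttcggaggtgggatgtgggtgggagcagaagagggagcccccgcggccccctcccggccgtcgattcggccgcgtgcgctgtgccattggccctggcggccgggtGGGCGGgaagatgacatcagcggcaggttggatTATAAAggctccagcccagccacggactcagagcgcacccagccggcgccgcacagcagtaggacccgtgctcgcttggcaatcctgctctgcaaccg
Kitlg promoter: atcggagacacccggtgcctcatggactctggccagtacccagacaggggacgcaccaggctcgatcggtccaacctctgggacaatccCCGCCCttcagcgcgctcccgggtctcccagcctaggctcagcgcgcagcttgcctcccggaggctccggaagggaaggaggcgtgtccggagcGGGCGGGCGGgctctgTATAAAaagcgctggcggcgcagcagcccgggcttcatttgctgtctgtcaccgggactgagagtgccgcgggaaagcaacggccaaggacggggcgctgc
Gja1 promoter: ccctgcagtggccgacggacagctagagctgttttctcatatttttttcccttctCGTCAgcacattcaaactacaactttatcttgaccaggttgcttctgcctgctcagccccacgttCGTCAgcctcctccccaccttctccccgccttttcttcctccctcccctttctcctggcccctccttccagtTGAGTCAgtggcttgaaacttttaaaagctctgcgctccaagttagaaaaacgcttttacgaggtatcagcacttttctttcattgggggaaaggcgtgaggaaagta

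The windows of Nppc and Kitlg each held 68.0% G and C, against a median of 51.7% over 33469 rat promoters of the same length, and that of Gja1 held 50.3%. They contained 30 and 28 CpG dinucleotides, and that of Gja1 had 10, where the median promoter has 7. Nppc and Kitlg each had 1 TATAAA, whose first base lay 48 bases before the start in Nppc and 51 bases before it in Kitlg. Of all promoters, 14.2% hold this word. GGGCGG, found in 33.1% of promoters, occurred once in Nppc and at 3 positions in Kitlg, of which the pair at 67 and 63 bases before the start overlap. Gja1 had neither word. It had 2 matches to TGACG, present in 21.2% of promoters, and 1 to TGANTCA, present in 7.33%. The words GTAAACA, TGACGTCA and AAGGTCA, held by 3.78%, 1.83% and 4.61% of promoters, were not found in these windows. The window starts of Kitlg and Gja1 lie 39 and 74 bases inside the outermost gene boundary, so upstream starts of other transcripts have windows that were not searched. Npr2 lies on chromosome 5, from base 62678197 to 62697360, and no promoter of it is shown.

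Signals are MAS5 signals, the array maker's summary of the probes of a probe set on a linear scale. The floor was the median of all rat probe sets over the 4 arrays, a signal of 100.5. Signals under it were raised to it before log2 was taken, so that a fold against such a signal is a lower bound and is given as "at least". A gene was read by its brightest probe set, and a 2-fold difference is used as a size to count by, not as a test. Of the 10 granulosa markers named on the array, 8 or 9 were above the floor on each array. Beside this, 47.9% to 52.8% of all rat probe sets were above it on an array. By brightest probe set, 10407 of 14217 genes were above it on any array. The granulosa label was not contradicted by this check, which only counts signals over the floor. On FOXOA3-mDBD FSH against GFP vehicle, Foxl2 was 5.58-fold, Amhr2 2.68-fold and Inha 2.24-fold lower, and Cyp19a1 at least 2.73-fold higher. Poly-A spike transcripts, bacterial RNAs added before labelling, had geometric mean signals of 19.7 on FOXOA3 FSH, 310.8 on FOXOA3-mDBD FSH, 249.0 on GFP FSH and 19.3 on GFP vehicle. FOXOA3-mDBD FSH and GFP FSH were thus the arrays of high spike signal. Any contrast of either with FOXOA3 FSH or GFP vehicle crosses this spike split. The summed signal of 10 theca, stroma and smooth muscle markers was 24433 on FOXOA3 FSH, 1482 on FOXOA3-mDBD FSH, 2318 on GFP FSH and 16695 on GFP vehicle, with the theca markers Cyp17a1 and Insl3 under the floor on every array. The markers did not move together. On FOXOA3 FSH against GFP vehicle, Dcn was 20.0-fold and Col3a1 2.90-fold higher, while Acta2 was 6.25-fold, Tagln 2.83-fold and Lum at least 2.40-fold lower. The part of these differences in the results below was not tested. In RNA from whole cultures, fewer cells of a type and less RNA per cell cannot be told apart.

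Nppc had the widest range of the members. Its signal was 185.6 on FOXOA3 FSH, 26.7 on FOXOA3-mDBD FSH, 1065.5 on GFP FSH and 59.3 on GFP vehicle. It was thus well above the floor on 1 array, a little above it on FOXOA3 FSH, and under it on the remaining pair, whose order is not read. With the control virus, Nppc was at least 10.6-fold higher on GFP FSH than on GFP vehicle. On FOXOA3 FSH it was 5.74-fold lower than on GFP FSH, with 17 of 9941 genes further down by floored log2 ratio. On FOXOA3-mDBD FSH it was at least 10.6-fold lower than on GFP FSH, a comparison within the arrays of high spike signal. The contrasts of GFP FSH with GFP vehicle and of FOXOA3 FSH with GFP FSH both crossed the spike split. The part of that split was not tested. All 3 contrasts use the GFP FSH array, so they are not independent. FOXOA3 FSH was at least 1.85-fold above both FOXOA3-mDBD FSH and GFP vehicle. A signal at least 2-fold above each other array on GFP FSH was found for Nppc alone of the members and for 2.66% of 10407 genes above the floor on any array.

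**Figure D1:**
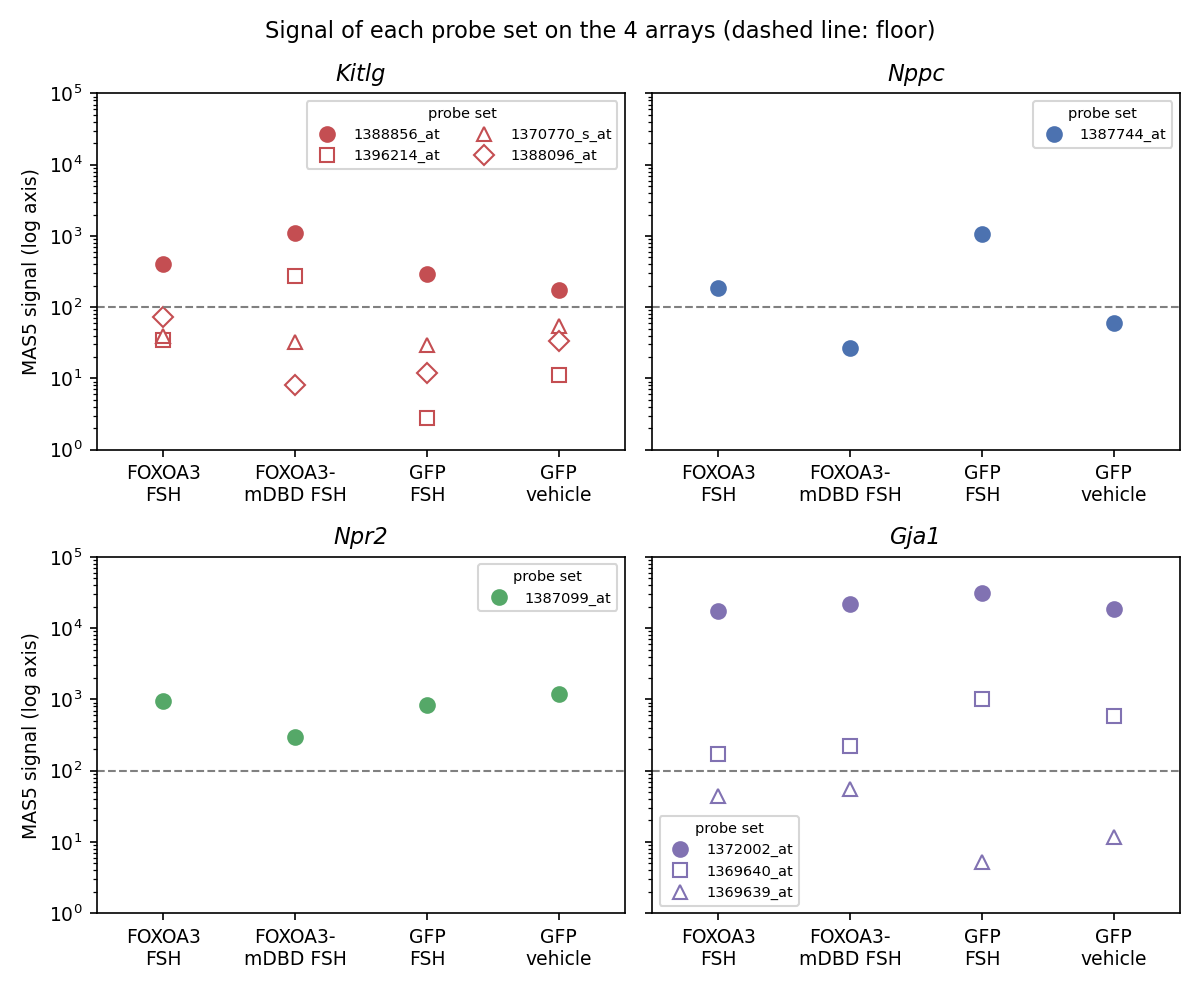
MAS5 signal (log axis) of all 9 probe sets on the 4 arrays, 1 array per group. Filled symbols are the brightest probe set of a gene, open symbols the others, and the dashed line is the floor of 100.5. Nppc is brightest on GFP FSH at 1065.5, Kitlg on FOXOA3-mDBD FSH at 1105.2, and Npr2 is dimmest on FOXOA3-mDBD FSH at 295.3.

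Npr2, the receptor for C-type natriuretic peptide, followed another course than its ligand. Its signal was 938.7 on FOXOA3 FSH, 295.3 on FOXOA3-mDBD FSH, 845.3 on GFP FSH and 1212.3 on GFP vehicle. The array with the mutant stood apart at the low end, and the other 3 lay within 1.43-fold of each other. On FOXOA3-mDBD FSH, Npr2 was 2.86-fold lower than on GFP FSH and 4.11-fold lower than on GFP vehicle. FOXOA3 FSH was 3.18-fold higher than FOXOA3-mDBD FSH. It differed little from the control virus, at a log2 ratio of 0.15 against GFP FSH that turned to -0.25 when arrays were centred on their medians. GFP FSH was lower than GFP vehicle by 1.43-fold, a difference smaller than the size counted here. Npr2 was the member at least 2-fold below each other array on FOXOA3-mDBD FSH, as were 8.04% of genes. Of these Npr2 folds, only that of FOXOA3-mDBD FSH against GFP FSH did not cross the spike split, whose part was not tested.

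Kitlg had its highest signal on the array with the mutant. The brightest probe set, 1388856_at, had signals of 403.9 on FOXOA3 FSH, 1105.2 on FOXOA3-mDBD FSH, 297.2 on GFP FSH and 174.0 on GFP vehicle. All were above the floor, in the order FOXOA3-mDBD FSH, FOXOA3 FSH, GFP FSH and GFP vehicle, with neighbours after the first within 1.71-fold of each other. Kitlg on FOXOA3-mDBD FSH was 3.72-fold higher than on GFP FSH and 6.35-fold higher than on GFP vehicle. On FOXOA3 FSH it was 2.74-fold lower than on FOXOA3-mDBD FSH, 1.36-fold higher than on GFP FSH and 2.32-fold higher than on GFP vehicle. The FSH difference under the control virus was 1.71-fold, GFP FSH being higher. Kitlg was at least 2-fold above each other array on FOXOA3-mDBD FSH, as were 5.76% of genes. The contrasts of FOXOA3-mDBD FSH with GFP FSH and of FOXOA3 FSH with GFP vehicle did not cross the spike split. The other Kitlg contrasts did, and the part of that split was not tested.

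Of the other Kitlg probe sets, 1396214_at showed the same array on top, with signals of 34.7 on FOXOA3 FSH, 276.3 on FOXOA3-mDBD FSH, 2.8 on GFP FSH and 11.0 on GFP vehicle. Only the mutant array was above the floor, by at least 2.75-fold over each of the others. The remaining pair, 1370770_s_at and 1388096_at, lay between 8.0 and 73.1 on every array, under the floor, and gave no ratio. Exons and transcript ends covered by these probe sets were not looked up, so forms of KIT ligand were not told apart. Averaged over all 4 probe sets, most of them at the floor, the log2 ratio of FOXOA3-mDBD FSH over GFP FSH was 0.84 in place of 1.89, and that of FOXOA3 FSH over GFP vehicle 0.30 in place of 1.21.

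The probe sets of Gja1 disagreed about the viruses. The brightest, 1372002_at, had signals of 17423.5 on FOXOA3 FSH, 21964.1 on FOXOA3-mDBD FSH, 31458.2 on GFP FSH and 18341.5 on GFP vehicle. It ranked 4, 29, 1 and 4 among the 31042 rat probe sets of those arrays, so that on GFP FSH it held the highest signal of all. These ranks belong to 1 probe set and are no measure of transcript abundance. The highest signals of any probe set were 19548.7 on FOXOA3 FSH, 30105.0 on FOXOA3-mDBD FSH, 31458.2 on GFP FSH and 20693.6 on GFP vehicle, so 1372002_at lay near the top of the range of each array. Whether it was saturated, which would shrink its folds, was not tested. The second probe set, 1369640_at, had signals of 170.4 on FOXOA3 FSH, 221.9 on FOXOA3-mDBD FSH, 1010.2 on GFP FSH and 579.0 on GFP vehicle. The last, 1369639_at, lay between 5.2 and 55.4, under the floor on every array.

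Both measured Gja1 probe sets had their highest signal on GFP FSH, and they gave nearly the same difference to GFP vehicle, 1.72-fold and 1.74-fold. They parted where a FOXO1 virus was set against a GFP virus. FOXOA3 FSH was 1.81-fold lower than GFP FSH by 1372002_at and 5.93-fold lower by 1369640_at, and FOXOA3-mDBD FSH was lower by 1.43-fold and 4.55-fold. Against GFP vehicle, FOXOA3 FSH was lower by 1.05-fold and 3.40-fold. The first of these turned to a log2 ratio of 0.10 higher after loess. It was 0 after quantile normalization, where only the rank of a signal counts, and that was 4 on both arrays. FOXOA3-mDBD FSH was 1.20-fold higher than GFP vehicle by the first probe set, which turned to log2 ratios of -0.33 after quantile normalization and -0.19 after loess, and 2.61-fold lower by the second. Between the FOXO1 viruses they again gave like values, with FOXOA3 FSH lower than FOXOA3-mDBD FSH by 1.26-fold and 1.30-fold, the first of which turned to log2 ratios of 0.33 after quantile normalization and 0.25 after loess. As a sign of RNA quality, the Gapdh control probes had a 3′ over 5′ ratio of 2.84 on FOXOA3 FSH, 3.15 on FOXOA3-mDBD FSH, 2.46 on GFP FSH and 2.32 on GFP vehicle, and so was higher on the FOXO1 virus arrays. For actin it was 9.79, 10.7, 12.0 and 5.15 in the same order, lowest on GFP vehicle. The part of RNA quality in these values was not tested.

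The distance between the brightest and the second probe set of a gene served as a scale for this disagreement, a measure chosen after the values had been seen. For FOXOA3 FSH against GFP FSH, 1944 genes had both above the floor, and their log2 ratios differed by a median of 0.43. The difference for Gja1 was 1.72, and 1.85% of these genes differed by as much or more. For FOXOA3 FSH against GFP vehicle the median was 0.29 over 2066 genes, and Gja1 differed by 1.69, reached or passed by 8 genes. The values of 1372002_at also depended on the scaling. Its log2 ratio of GFP FSH over GFP vehicle was 0.14 after quantile normalization and 0.22 after loess in place of 0.78, and that of FOXOA3 FSH over GFP FSH was -0.14 after quantile normalization, -0.10 after loess and -1.25 after centring, in place of -0.85.

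Counted by brightest probe set, 1 of the 4 members was 2-fold higher on GFP FSH than on GFP vehicle and 0 were lower, beside 6.84% and 11.1% of all measured genes. On FOXOA3 FSH against GFP FSH, 0 were higher and 1 was lower, beside 11.1% and 6.99%. FOXOA3-mDBD FSH against GFP FSH had 1 higher and 2 lower, beside 12.5% and 19.1%. FOXOA3 FSH against FOXOA3-mDBD FSH had 1 higher and 1 lower, beside 19.0% and 9.24%. Members went both ways in this contrast, with Npr2 higher and Kitlg lower on FOXOA3 FSH. FOXOA3 FSH against GFP vehicle had 1 higher and 0 lower, beside 5.32% and 4.01%. FOXOA3-mDBD FSH against GFP vehicle had 1 higher and 1 lower of the 3 that were measured, beside 13.0% and 22.5%. The median log2 ratio of the members was 0.78 on GFP FSH against GFP vehicle, where that of all genes was -0.00268, and -1.02 on FOXOA3-mDBD FSH against GFP FSH, where that of all genes was -0.16. With 4 genes that went different ways, neither median describes any 1 of them well. Over all genes the balance of directions depended on the scaling. Centring each array on its median left 603 genes 2-fold higher and 1679 lower on FOXOA3 FSH against GFP FSH, in place of 1105 and 695, and 342 and 700 on FOXOA3 FSH against GFP vehicle, in place of 527 and 397. FOXOA3 FSH against FOXOA3-mDBD FSH had 1273 higher and 1346 lower after centring and 1367 and 1095 after loess, in place of 1913 and 932, and GFP FSH against GFP vehicle had 908 and 865 after centring, in place of 655 and 1063.

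**Figure D2:**
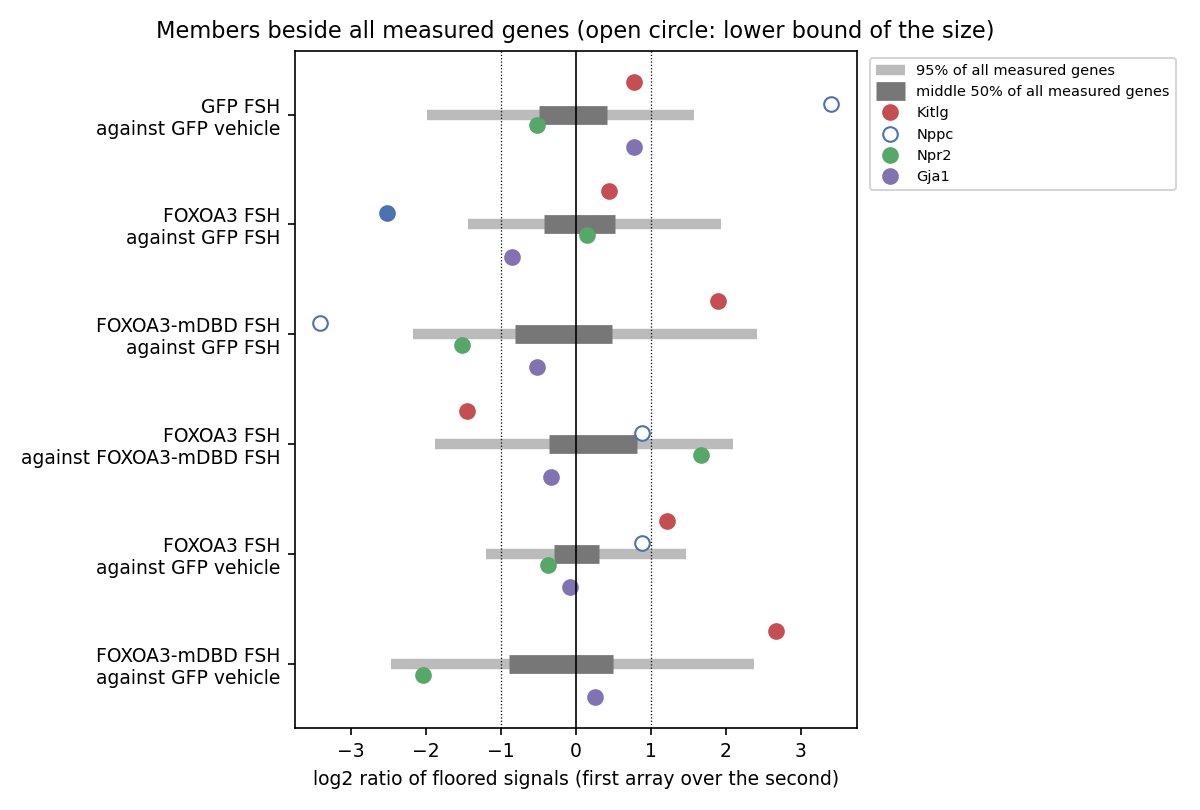
Log2 ratio of the first array over the second for each member (brightest probe set), beside the range of all measured genes. Dark bars span the middle 50% and pale bars the middle 95% of genes, dotted lines mark a 2-fold difference, and open circles are lower bounds of the size. Nppc lies outside the bars in the upper 3 rows, at 3.41, -2.52 and -3.41, and Kitlg in the bottom row, at 2.67.

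The 4 members did not share a pattern. The distance between patterns was taken over the 4 arrays as the Euclidean distance of floored log2 signals, each centred on its own mean, among 10406 other genes. The nearest member to Nppc was Gja1, at a distance of 2.26 and with 1272 genes nearer. The nearest to Npr2 was Gja1 too, at 1.81, but with 6827 genes nearer. For Kitlg it was also Gja1, at 2.01 and with 4303 genes nearer. The distance was not scaled by how much a gene varied, and Gja1 varied least of the members. Being the nearest member thus does not show a like pattern. Seen from Gja1, 8897 genes lay nearer than Npr2, 9310 nearer than Kitlg and 9698 nearer than Nppc. The distances of Gja1 rest on its brightest probe set, and its other probe sets were not used for them. Kitlg and Nppc were 3.76 apart. With 4 arrays many genes lie close to any pattern, and a small distance says nothing of shared control. The genes nearest to Kitlg were Dsel at 0.087, Dennd2c at 0.16 and Ell2, an elongation factor of RNA polymerase II, at 0.16. Dsel had signals of 2817.8, 7481.3, 1912.7 and 1195.0 on FOXOA3 FSH, FOXOA3-mDBD FSH, GFP FSH and GFP vehicle. Nearest to Nppc were Creg1 at 0.35, Hsd17b7, an enzyme of estradiol and cholesterol synthesis, at 0.38, and Isyna1, which makes inositol phosphate from glucose phosphate, at 0.41. Since Nppc was at the floor on 2 arrays, its distances depend on the floor. Nearest to Npr2 were Aldh16a1 at 0.084, the phosphatase subunit Ppp2r5d at 0.098 and the kinase Akt1 at 0.10. Nearest to Gja1 were Taldo1, transaldolase of the pentose phosphate pathway, at 0.032, the tubulin cofactor Tbca at 0.045 and the cyclophilin Ppih at 0.047.

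**Figure D3:**
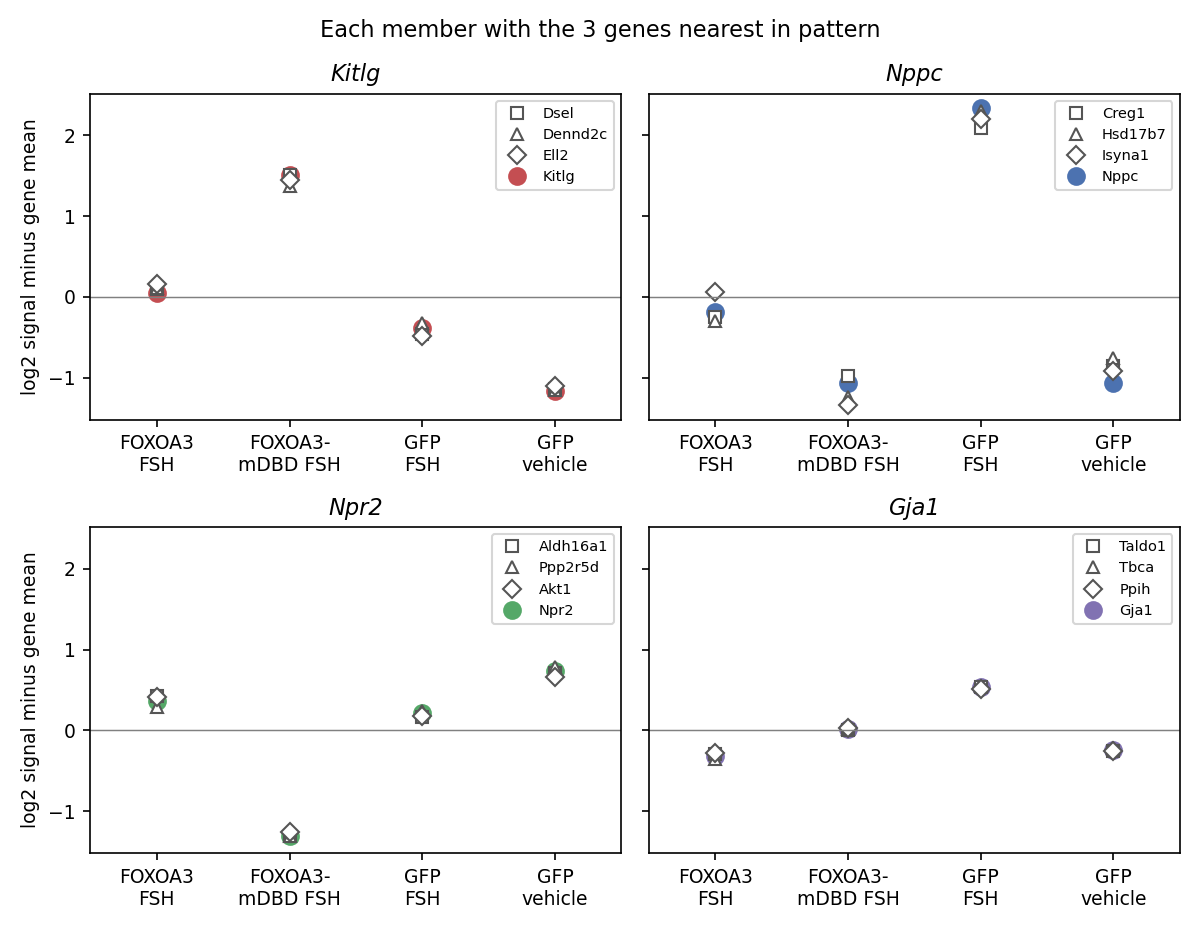
Floored log2 signal minus the mean of the gene over the 4 arrays, for each member (filled circle) and the 3 genes nearest to it (open symbols). Kitlg and its neighbours peak on FOXOA3-mDBD FSH, Nppc and its neighbours on GFP FSH, Npr2 and its neighbours dip on FOXOA3-mDBD FSH, and Gja1 and its neighbours vary least.

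Around the members, the array annotation held 55 of the 67 gene symbols in 6 pathway lists, and 39 of these genes were above the floor on at least 1 array. The 67 include Gucy1a3 and Gucy1b3, which were not held, beside Gucy1a1 and Gucy1b1, which were. Of these, 22, or 56.4%, differed 2-fold in at least 1 comparison, as did 52.1% of all 10407 genes above the floor on any array, so the share was near that of all genes. On GFP FSH against GFP vehicle, 5 of 35 measured list genes were 2-fold higher and 5 lower, beside 6.84% and 11.1% of all measured genes. On FOXOA3 FSH against GFP FSH, 5 of 39 were higher and 3 lower, beside 11.1% and 6.99%. On FOXOA3-mDBD FSH against GFP FSH, 4 of 38 were higher and 9 lower, beside 12.5% and 19.1%. FOXOA3 FSH against FOXOA3-mDBD FSH had 5 of 39 higher and 2 lower, beside 19.0% and 9.24%. Against GFP vehicle, FOXOA3 FSH had 3 of 39 higher and 2 lower, beside 5.32% and 4.01%, and FOXOA3-mDBD FSH had 6 of 37 higher and 7 lower, beside 13.0% and 22.5%. The list genes had a median log2 ratio between -0.11 and 0.13 over these 6 comparisons, and all measured genes one between -0.17 and 0.21. Each list gene was read by its brightest probe set, though some have more, such as Akt1 with 3 and Src with 4. By the mean of probe sets, 2 list genes were 2-fold higher and 4 lower on FOXOA3-mDBD FSH against GFP FSH.

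In the natriuretic peptide list, the convertase Furin, which cleaves the peptide precursors, had signals of 963.2 on FOXOA3 FSH, 126.2 on FOXOA3-mDBD FSH, 254.2 on GFP FSH and 813.3 on GFP vehicle. It was 3.20-fold lower on GFP FSH than on GFP vehicle, where Nppc was higher, and 3.79-fold higher on FOXOA3 FSH than on GFP FSH, where Nppc was lower. Its signal was high on the same arrays as the summed stroma markers given above, which were also the arrays of low poly-A spike signal. Both of these Furin folds set an array of low spike signal against one of high spike signal. The part of either difference was not tested. The other natriuretic peptides Nppa and Nppb, the receptor Npr1 and the clearance receptor Npr3 had no signal over 98.7 on any array, all under the floor. The phosphodiesterases Pde3a and Pde5a and the cGMP-dependent kinase Prkg2 were likewise at or below 61.9. Thus Npr2 was the natriuretic peptide receptor that was read above the floor here. Of the soluble guanylyl cyclase subunits, Gucy1a1 had signals of 3645.7, 2718.3, 6268.5 and 4397.7 on FOXOA3 FSH, FOXOA3-mDBD FSH, GFP FSH and GFP vehicle, and Gucy1b1 611.4, 1965.2, 1483.4 and 974.0. Gucy1b1 was 2.43-fold lower on FOXOA3 FSH than on GFP FSH, and Gucy1a1 2.31-fold lower on FOXOA3-mDBD FSH than on GFP FSH. Abcc4, a transporter that exports cyclic nucleotides, was 2.39-fold higher on GFP FSH than on GFP vehicle and 2.55-fold lower on FOXOA3-mDBD FSH than on GFP FSH. Abcc5, another such transporter, and Ppp6c, a phosphatase catalytic subunit, passed 2-fold on FOXOA3-mDBD FSH against GFP vehicle, the first lower by 2.22-fold and the second higher by 2.04-fold. Impdh2, the enzyme of guanine nucleotide synthesis, could not be read, since no probe set carried its symbol alone.

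In the KIT ligand list, the receptor gene Kit had signals of 17.7, 13.3, 1.9 and 10.4 on FOXOA3 FSH, FOXOA3-mDBD FSH, GFP FSH and GFP vehicle, all under the floor. Adam17, a protease that can release membrane-bound KIT ligand, stayed between 2096.7 and 3348.8 and passed 2-fold in no comparison. The related protease Adam10 was 2.70-fold higher on FOXOA3 FSH and 2.44-fold higher on FOXOA3-mDBD FSH than on GFP FSH. Akt1 was 2.71-fold lower on FOXOA3-mDBD FSH than on GFP FSH. Pik3r1, a regulatory subunit of PI3-kinase, was 2.34-fold lower on GFP FSH and at least 3.41-fold lower on FOXOA3 FSH than on GFP vehicle.

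Among gap junction and adhesion genes, Gjc1, which encodes connexin 45, had signals of 462.7 on FOXOA3 FSH, 4480.3 on FOXOA3-mDBD FSH, 430.6 on GFP FSH and 482.0 on GFP vehicle. The mutant array stood 10.4-fold above GFP FSH and 9.30-fold above GFP vehicle, and the other 3 arrays lay within 1.12-fold of each other. FOXOA3 FSH was 9.68-fold lower than FOXOA3-mDBD FSH. Gja4, which encodes connexin 37 and in mouse serves the oocyte side of the junction, had 153.9, 169.8, 94.2 and 75.7 on FOXOA3 FSH, FOXOA3-mDBD FSH, GFP FSH and GFP vehicle, so only the FOXO1 virus arrays were above the floor. Tjp1, the scaffold ZO-1 that binds connexin 43, was 2.28-fold higher on FOXOA3-mDBD FSH than on GFP FSH. The kinase Src, which phosphorylates connexin 43, had 802.0, 117.0, 239.1 and 840.2 in the same order, and Dbn1, the actin-binding protein drebrin, had 2677.6, 476.2, 1880.5 and 3603.9. Both were lowest on FOXOA3-mDBD FSH, Src by 2.04-fold and Dbn1 by 3.95-fold below GFP FSH. Src differed more elsewhere, 3.51-fold lower on GFP FSH than on GFP vehicle and 3.35-fold higher on FOXOA3 FSH than on GFP FSH. It was low on the arrays of high poly-A spike signal, FOXOA3-mDBD FSH and GFP FSH, and the part of that split was not tested. Cdh2, N-cadherin, stayed between 2027.5 and 2788.0.

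**Figure D4:**
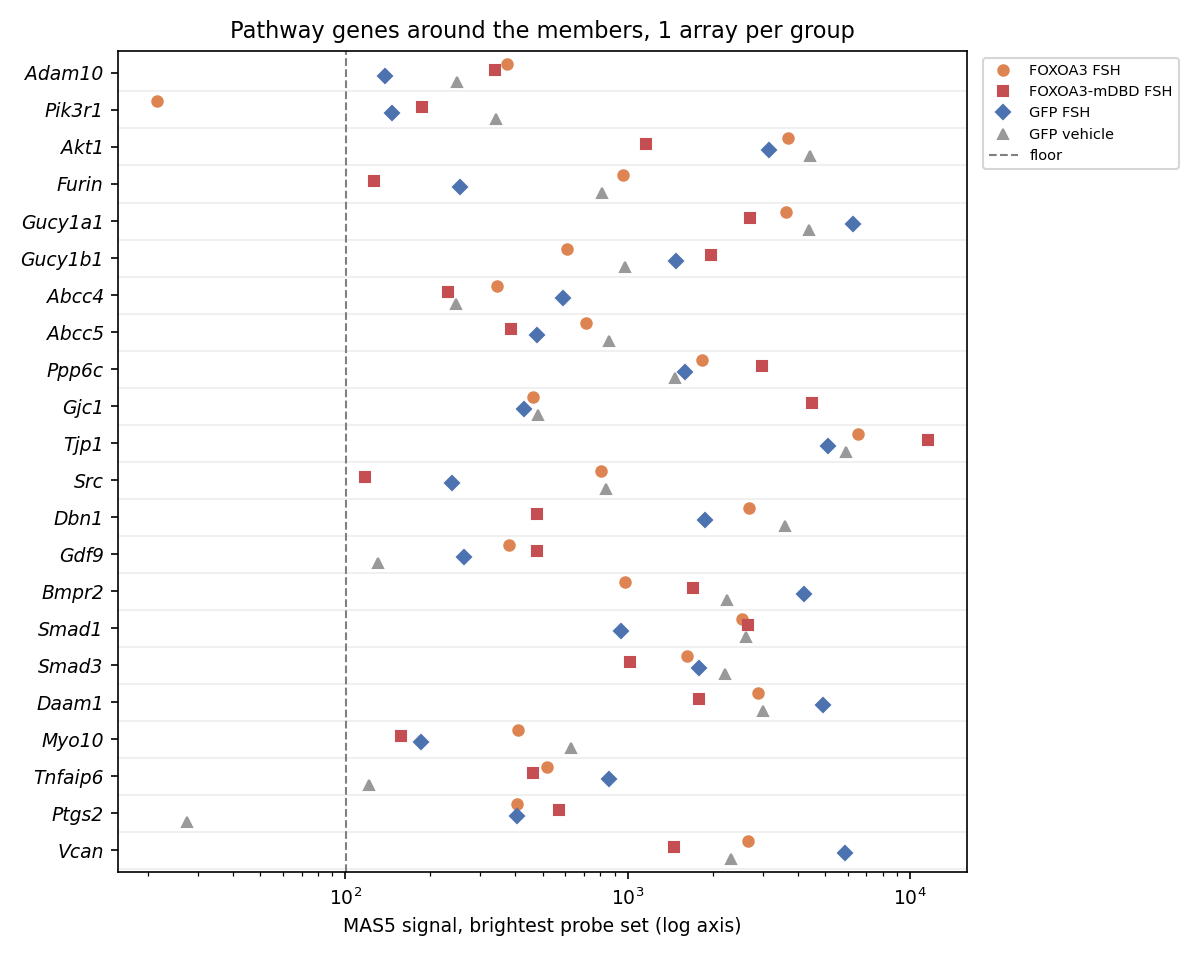
MAS5 signal (log axis) of the brightest probe set on each of the 4 arrays, for the 22 list genes with a 2-fold difference in at least 1 comparison. The dashed line is the floor. Gjc1 stands out on FOXOA3-mDBD FSH at 4480.3, with the other 3 arrays between 430.6 and 482.0.

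Genes that answer the oocyte or reach it were also read. The type 2 receptor Bmpr2, through which the oocyte factors GDF9 and BMP15 act, had signals of 978.0 on FOXOA3 FSH, 1697.7 on FOXOA3-mDBD FSH, 4198.3 on GFP FSH and 2253.2 on GFP vehicle. It was highest on GFP FSH, as Nppc and Gja1 were, and was 4.29-fold lower on FOXOA3 FSH and 2.47-fold lower on FOXOA3-mDBD FSH than on GFP FSH. Smad1, a signal transducer of BMP receptors, went the other way, 2.77-fold lower on GFP FSH than on GFP vehicle and 2.70-fold and 2.81-fold higher on FOXOA3 FSH and FOXOA3-mDBD FSH than on GFP FSH. Smad3 was 2.17-fold lower on FOXOA3-mDBD FSH than on GFP vehicle. Of the genes of cell processes that reach the oocyte, the actin regulator Daam1 was 2.75-fold lower on FOXOA3-mDBD FSH than on GFP FSH, and the filopodial motor Myo10 was 3.40-fold lower on GFP FSH than on GFP vehicle.

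Oocyte markers gave a mixed reading. The defining oocyte genes Bmp15 and Zp1 were under the floor on every array, at 85.2 or less, and so was Sohlh1. Zp2, a zona pellucida gene, was above it on every array, with signals of 249.3 on FOXOA3 FSH, 401.4 on FOXOA3-mDBD FSH, 622.1 on GFP FSH and 263.1 on GFP vehicle. Ooep was also above it on all 4 arrays, at 220.4, 353.3, 156.5 and 132.2 in the same order, and Zp3 on FOXOA3-mDBD FSH at 191.3 and GFP FSH at 158.3. In all, 3 or 4 of the 7 named markers were above the floor on each array, beside 47.9% to 52.8% of all rat probe sets. The count was thus near that share and by itself gives no reading of oocyte RNA. Gdf9, itself an oocyte factor, had signals of 378.9 on FOXOA3 FSH, 477.5 on FOXOA3-mDBD FSH, 262.3 on GFP FSH and 130.3 on GFP vehicle. The summed signal of the oocyte list was 1005.8, 1608.7, 1226.6 and 587.8 in the same order, against 39363.5, 25110.6, 92932.7 and 32368.4 for the granulosa list. The granulosa sum was highest on GFP FSH, the array on which Nppc and Gja1 were highest. Its markers did not move together. On GFP FSH against GFP vehicle, 6 of the 9 measured were 2-fold higher, beside 6.84% of all measured genes. They were Cyp19a1 (at least 130-fold), Hsd17b1 (6.29-fold), Nr5a2 (4.90-fold), Inha (3.09-fold), Inhba (2.51-fold) and Amhr2 (2.01-fold). No measured granulosa marker was 2-fold lower, beside 11.1% of all measured genes. Foxl2 was 1.57-fold and Amh 1.23-fold lower, and Fst was 1.27-fold higher. The part of the granulosa sum in the values of Nppc and Gja1 was not tested.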

How the data were processed

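Expression of 4 genes was read from 4 arrays, 1 per group, with groups taken from the sample titles. The authors deposited 1 linear intensity per probe set and array. Per the submitters' processing notes these came from MAS5, with no version stated there. The 2% trimmed means were between 500.1 and 500.2, so the arrays had been scaled alike, which hides differences in total RNA per cell. Probe sets were named by a table of platform annotation, in which 20826 of 31042 rat probe sets had 1 gene symbol, 436 several and 9780 none. All 9 member probe sets matched current gene identifiers. A gene was represented by its brightest probe set, judged by the mean over arrays.

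Log2 ratios were taken after raising signals to the floor of 100.5, in Python 3.11.15 with pandas 2.3.3. A gene was measured if the higher signal passed the floor. Named genes were the members, the list genes that differed 2-fold in a comparison, partner genes such as Kit and Npr1 whatever their values, and the 3 nearest genes in pattern. The members and the lists were chosen with earlier results of these data known, and the comparison of probe sets of a gene was added after their values were seen. With 1 array per group no test was run, and the small number of arrays limits the precision. The steps were tested on simulated data. The alternatives were other floors, no floor, quantile normalization, centring, loess and the mean of probe sets. Promoter sequences are from RefSeq on GRCr8, and no genome was used here.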

Additional observations from a re-analysis of the deposited data

How the results depend on the processing

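No paired analysis was possible because each group has 1 array. Over 7 alternatives, 141 of the member values stayed on their side of 2-fold, 9 fell short of it and 6 newly reached it. The 141 include values that could not move. Nppc and Npr2 have 1 probe set each, so the mean of probe sets repeats their main value. A ratio of signals that are both above the floor is also unchanged by a lower floor or none. The sign turned only for differences under 2-fold, for Npr2 on FOXOA3 FSH against GFP FSH (-0.25 after centring) and for Gja1: on FOXOA3 FSH against FOXOA3-mDBD FSH (0.33 after quantile normalization, 0.25 after loess), on FOXOA3 FSH against GFP vehicle (0.10 after loess) and on FOXOA3-mDBD FSH against GFP vehicle (-0.33, -0.19 and, for the mean of probe sets, -0.37). Quantile normalization uses only the rank of a probe set on its array. For 1372002_at this was 4 on FOXOA3 FSH, 29 on FOXOA3-mDBD FSH and 4 on GFP vehicle. The cause of the other turns was not tested. With a floor of 542.5 (the 75th percentile), the log2 ratio of Nppc was 0.97 on GFP FSH against GFP vehicle and -0.97 on each FOXO1 virus array against GFP FSH, and that of Npr2 was -0.64 on FOXOA3-mDBD FSH against GFP FSH and 0.79 on FOXOA3 FSH against FOXOA3-mDBD FSH. Nppc on FOXOA3 FSH was 2.76 above FOXOA3-mDBD FSH and 1.65 above GFP vehicle with a floor of 27.4 (the 25th percentile), and 2.80 and 1.65 with none. Gja1 on FOXOA3 FSH against GFP FSH was -1.25 after centring and -1.14 for the mean of probe sets. Kitlg on FOXOA3 FSH against GFP vehicle was 0.97 after centring and 0.30 for the mean of probe sets, which also gave 0.84 on FOXOA3-mDBD FSH against GFP FSH and -0.73 on FOXOA3 FSH against FOXOA3-mDBD FSH. Counts of all genes 2-fold apart moved by over 1.5 times in 24 of the counts. On GFP FSH against GFP vehicle, 1087 were higher with the low floor, and 354 higher and 456 lower with the high floor. On FOXOA3 FSH against GFP FSH, 1981 were higher with the low floor, 423 higher and 391 lower with the high floor, and 603 higher and 1679 lower after centring. On FOXOA3-mDBD FSH against GFP FSH, 1949 were higher with the low floor, and 699 higher and 872 lower with the high floor. On FOXOA3 FSH against FOXOA3-mDBD FSH, 668 were higher and 587 lower with the high floor, and 1273 higher after centring. On FOXOA3 FSH against GFP vehicle, 1237 were higher and 609 lower with the low floor, 204 and 205 with the high floor, 819 higher with no floor, and 342 higher and 700 lower after centring. On FOXOA3-mDBD FSH against GFP vehicle, 1980 were higher with the low floor, and 789 higher and 957 lower with the high floor. Of the list genes, the low floor gave 8 lower on GFP FSH against GFP vehicle, 9 higher on FOXOA3 FSH and 9 higher on FOXOA3-mDBD FSH against GFP FSH, 5 lower on FOXOA3 FSH against FOXOA3-mDBD FSH, and 6 higher on FOXOA3 FSH and 11 higher on FOXOA3-mDBD FSH against GFP vehicle. The high floor gave 1 higher and 1 lower on GFP FSH against GFP vehicle, 1 higher on FOXOA3 FSH against GFP FSH, 2 higher on FOXOA3 FSH against FOXOA3-mDBD FSH, 0 higher and 1 lower on FOXOA3 FSH against GFP vehicle, and 3 higher and 3 lower on FOXOA3-mDBD FSH against GFP vehicle. With no floor, 6 were higher on FOXOA3 FSH against GFP vehicle. Centring gave 8 lower on FOXOA3 FSH against GFP FSH and 5 lower on FOXOA3 FSH against FOXOA3-mDBD FSH. The mean of probe sets gave 3 lower on GFP FSH against GFP vehicle, 2 higher on FOXOA3 FSH against GFP FSH, 2 higher and 4 lower on FOXOA3-mDBD FSH against GFP FSH, and 1 lower on FOXOA3 FSH against GFP vehicle. Nppc was under the floor on FOXOA3-mDBD FSH and GFP vehicle and has no value there, and the high floor gave no value where both signals were under it. Signal over background limits Nppc and 4 of the other probe sets, and 1 array per group limits every value.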

Other observations

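Genes of the cumulus matrix, which surrounds the oocyte before ovulation, were also on the array. Tnfaip6, a protein that links hyaluronan chains, had signals of 516.0 on FOXOA3 FSH, 460.7 on FOXOA3-mDBD FSH, 860.7 on GFP FSH and 120.8 on GFP vehicle, and was 7.12-fold higher on GFP FSH than on GFP vehicle. Ptgs2, an enzyme of prostaglandin synthesis, had 406.1, 570.1, 403.6 and 27.4 on the same arrays, so all 3 FSH arrays were above the floor and GFP vehicle was not. It was at least 4.02-fold higher on GFP FSH than on GFP vehicle. Vcan, the proteoglycan versican, had 2657.1, 1459.6, 5897.7 and 2314.8, with the highest signal on GFP FSH, as for Nppc. It was 2.22-fold lower on FOXOA3 FSH and 4.04-fold lower on FOXOA3-mDBD FSH than on GFP FSH. Has2, the hyaluronan synthase of that matrix, had 175.8, 187.8, 91.2 and 55.1, so it was above the floor on FOXOA3 FSH and FOXOA3-mDBD FSH and under it on both GFP arrays. Itih1 and Itih2 were under the floor on every array.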
